A study of Mus musculus with 11 samples.

Results

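The 10 genes described here mark lymphocytes. Cd3e, Cd3g, Cd4 and Cd8a mark T cells, Nkg7 and Gzma cytotoxic lymphocytes, Cd79a, Cd79b and Ms4a1 B cells, and Cd52 lymphocytes and other leukocytes. They were taken by gene name from per-gene read counts of whole kidneys, as 10 of 24914 rows. The libraries came from 129X1/SvJ mice aged 5.5 weeks, in a Col4a3 knockout model of Alport syndrome. There were 4 libraries of Col4a3 -/- mice given antimiR-21, which inhibits the microRNA miR-21 by base pairing (KO antimiR-21), 4 libraries of Col4a3 -/- mice given PBS (KO PBS) and 3 libraries of Col4a3+/- mice given PBS (HET PBS). All mice carried at least 1 mutant Col4a3 allele, and wild-type mice and heterozygous mice given antimiR-21 were not analysed here. Dose, length of treatment and sex are not stated in the labels. No member passed an adjusted p of 0.05 by edgeR's quasi-likelihood test in any of the 3 comparisons, and the levels were low throughout.

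Alport syndrome is an inherited disease of the type IV collagen of the glomerular basement membrane, and leukocytes enter the kidney interstitium as it scars. T cells recognise antigen with a receptor that signals through the CD3 chains, and the coreceptors CD4 and CD8 divide them into helper and cytotoxic kinds. Cytotoxic T cells and natural killer (NK) cells kill through granules that hold granzymes, and B cells signal through a receptor whose transducing chains are CD79A and CD79B. In RNA of a whole organ, fewer cells of a type and less RNA per cell cannot be told apart.

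Counts per library totalled 17.9 to 39.7 M after rows with identical counts were joined. Levels below are in CPM, the counts of a gene relative to the TMM-scaled total of its library. Kidney markers such as Umod and Lrp2 were high in every library, with sums over 7 genes of 16188 to 30996 CPM in KO antimiR-21, 17921 to 28341 CPM in KO PBS and 19551 to 32606 CPM in HET PBS. The largest part of these sums was Kap, which averaged 300756.5 counts per library, against 110042 for Umod and 71464 for Lrp2. Kap ran from 7426 to 33131 CPM per kb of exon over the libraries. Reads of Col4a3 could not be separated from those of its neighbour Col4a4. The joint level was 515 to 809 CPM in KO antimiR-21, 607 to 997 CPM in KO PBS and 870 to 1271 CPM in HET PBS, and it does not check the genotype labels. Ddx3y, a gene of the Y chromosome, was above 5 CPM in 1 of 4 KO antimiR-21 libraries (replicate 4), 2 of 4 KO PBS libraries (replicates 3 and 4) and 2 of 3 HET PBS libraries (replicates 2 and 3). The labels do not tie the replicates to litters or cages, so p-values measure only the spread between these libraries, part of which may be technical.

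Promoter sequences, 250 bases before to 50 bases after the start of the gene, were at hand from RefSeq (GRCm38.p6) for 6 of the 10 members, which were Cd3e, Cd3g, Cd8a, Nkg7, Gzma and Cd79a. Those of Nkg7 and Gzma, the pair of granule genes of cytotoxic cells, are shown because they were the promoters among these 6 that held letters bound by Runx factors, which act in cytotoxic lymphocytes. The promoter of Nkg7 lies at chr7:43436888-43437187 on the plus strand and that of Gzma at chr13:113100932-113101231 on the minus strand. Both are written 5′ to 3′ along the gene, with the Runx and T-box letters in capitals.
Nkg7: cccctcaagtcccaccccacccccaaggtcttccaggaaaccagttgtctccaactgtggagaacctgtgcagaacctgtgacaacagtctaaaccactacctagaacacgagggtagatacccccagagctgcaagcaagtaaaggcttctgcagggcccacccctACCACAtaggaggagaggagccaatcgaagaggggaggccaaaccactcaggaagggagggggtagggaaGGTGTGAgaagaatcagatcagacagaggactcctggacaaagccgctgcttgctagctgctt
Gzma: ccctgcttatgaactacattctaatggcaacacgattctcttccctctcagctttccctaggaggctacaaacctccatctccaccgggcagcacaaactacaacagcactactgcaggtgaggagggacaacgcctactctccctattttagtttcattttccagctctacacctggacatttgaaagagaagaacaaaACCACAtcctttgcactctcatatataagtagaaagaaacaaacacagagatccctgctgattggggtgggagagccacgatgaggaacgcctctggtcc
The letters searched on both strands were TGTGGT for Runx and GGTGTGA for T-box factors, and ACCACA in the printed sequences is the Runx match on the other strand. The Runx letters began at position -83 of Nkg7 and -50 of Gzma relative to the RefSeq start of the gene, and the T-box letters at -13 of Nkg7. Among 32851 RefSeq promoters of this length, 16.8% held the Runx letters and 3.98% the T-box letters. The octamer ATGCAAAT (1.74% of promoters) and the EBF letters CCCNNGGG (13.7%), both known from B cell genes, had no match in these 6 windows, that of Cd79a included. The short ETS letters GGAA (96.0%) and E-box letters CANNTG (72.3%) were in all 6. The matches describe letters in a window and were not tested for binding.

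All 10 members were at low levels, with 162.5 to 376.5 counts summed over them in a library. Cd52 averaged 93.6 counts per library, Cd8a 41.4, Cd4 32.4, Cd79b 31.2 and Cd3e 12.9. Nkg7 averaged 9.68 counts, Cd3g 8.36, Cd79a 7.77, Gzma 5.95 and Ms4a1 4.36. Gzma, Cd79a and Ms4a1 did not pass the filter on low counts and were left out of the fitted model, and the other 7 passed. A count of 0 occurred for Gzma in KO antimiR-21 replicate 1 and for Cd3g in HET PBS replicate 2, which allows levels up to 0.164 and 0.0823 CPM there (3 counts of the library size, counting error only).

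Divided by exon length, the median level over the 11 libraries was highest for Cd52 at 3.95 CPM per kb, followed by Cd79b at 0.949, Nkg7 at 0.508, Cd8a at 0.478 and Cd4 at 0.385 CPM per kb. Cd79a followed at 0.259, Gzma at 0.231, Cd3e at 0.157, Cd3g at 0.114 and Ms4a1 at 0.0221 CPM per kb. Cd52 was above Cd79b, and Cd79b above Nkg7, in 11 of 11 libraries. The places after these were not clearly separated, since Nkg7 was above Cd8a in 7 of 11 libraries, Cd8a above Cd4 in 8, Cd4 above Cd79a in 9 and Cd79a above Gzma in 6. Ms4a1 was below Cd3g in 10 of 11 libraries. Exon length was the union of all annotated exons of a gene, so the order and the ratios below depend on the annotation. Genes whose proteins work as partners were not at equal levels per kb. The mean level of Cd79b was 4.11 times that of Cd79a, its partner in the B cell receptor, and was higher in 11 of 11 libraries. The mean level of Cd8a was 2.17 times that of Cd8b1, the other CD8 chain, and higher in 10 of 11. Cd8a and Cd4 had mean levels 3.52 and 2.61 times that of Cd3e and were above it in 11 of 11 libraries each, whereas Cd3e and Cd3g stood at a ratio of 1.20 with Cd3e higher in 7 of 11. Both coreceptor genes are also transcribed by some dendritic cells of the mouse.

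**Figure D1:**
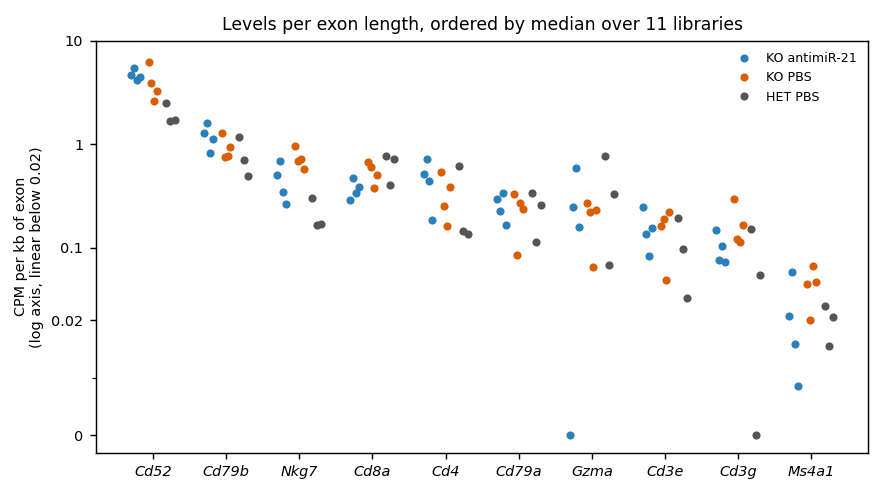
Level of each of the 10 lymphocyte markers in CPM per kb of exon (vertical log axis, linear below 0.02) for every KO antimiR-21, KO PBS and HET PBS library (points). Genes run from the highest median on the left (Cd52, 3.95) to the lowest on the right (Ms4a1, 0.0221), and the genes from Nkg7 to Cd3g overlap with their neighbours.

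Among the T cell genes, Cd3e (chr9:44998740-45009627, minus strand, GRCm38), the epsilon chain of CD3, stood at 1.01, 0.553, 0.344 and 0.642 CPM in KO antimiR-21, at 0.666, 0.777, 0.198 and 0.912 CPM in KO PBS and at 0.794, 0.398 and 0.133 CPM in HET PBS. The groups overlapped, and each held both low and high libraries. For KO antimiR-21 against KO PBS the log2 difference of Cd3e was -0.027 (SE 0.54, adjusted p = 0.994, edgeR), and its sign turned with the method, to 0.11 by limma-voom. For KO PBS against HET PBS it was 0.57 (SE 0.59, adjusted p = 0.866, edgeR), and single libraries moved it, to 1.20 without HET PBS replicate 1 and 0.19 without HET PBS replicate 3. Exons of Cd3e overlap the antisense gene Gm48719 over 163 bases, and the library kit does not mark strand.

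Cd3g (chr9:44969572-44980431, minus strand), the gamma chain of CD3, stood at 0.492, 0.249, 0.344 and 0.241 CPM in KO antimiR-21, at 0.964, 0.401, 0.374 and 0.543 CPM in KO PBS and at 0.494, 0 and 0.178 CPM in HET PBS. KO PBS replicate 1 was the highest library and HET PBS replicate 2 had no read, and the groups overlapped. The log2 difference between KO PBS and HET PBS was 1.40 with a 95% interval of -0.27 to 3.07 (adjusted p = 0.766, edgeR), and it was 2.88 without HET PBS replicate 1 and 0.70 without HET PBS replicate 2. Between KO antimiR-21 and KO PBS it was -0.82 (-2.32 to 0.68, adjusted p = 0.811, edgeR). With the HET PBS library without reads left out, KO antimiR-21 against HET PBS gave -0.13 in place of 0.58, and without HET PBS replicate 1 it gave 2.06.

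Cd4 (chr6:124864692-124888221, minus strand), the coreceptor of helper T cells, stood at 2.10, 2.90, 1.79 and 0.749 CPM in KO antimiR-21, at 2.16, 1.03, 0.661 and 1.55 CPM in KO PBS and at 2.49, 0.590 and 0.555 CPM in HET PBS. HET PBS replicate 1 was the second highest of all libraries, and the other HET PBS libraries were the lowest. The log2 difference was 0.47 (SE 0.55) for KO antimiR-21 against KO PBS, 0.17 (SE 0.60) for KO PBS against HET PBS and 0.64 (SE 0.60) for KO antimiR-21 against HET PBS. Single libraries set the value between KO PBS and HET PBS, which was 1.23 without HET PBS replicate 1 and -0.16 without HET PBS replicate 2. The value for KO antimiR-21 against HET PBS was 1.70 without HET PBS replicate 1 and 0.29 without HET PBS replicate 2 or 3. The log2 ratio of the mean levels of Cd4 was 0.95 among KO PBS and HET PBS libraries with Y-linked reads and -0.64 among those without, and in KO antimiR-21 against KO PBS it was -0.56 (1 library against 2) and 0.51.

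Cd8a (chr6:71373427-71379173, plus strand), a chain of the coreceptor of cytotoxic T cells, had its lowest group mean in KO antimiR-21. It stood at 1.07, 1.74, 1.23 and 1.42 CPM in KO antimiR-21, at 2.43, 2.20, 1.37 and 1.84 CPM in KO PBS and at 2.79, 1.48 and 2.60 CPM in HET PBS. KO antimiR-21 replicate 2 lay above HET PBS replicate 2 and KO PBS replicate 3, so the groups overlapped. Between KO antimiR-21 and HET PBS the log2 difference was -0.73 with a 95% interval of -1.36 to -0.095 (unadjusted p = 0.0276, adjusted p = 0.590, edgeR). Between KO antimiR-21 and KO PBS it was -0.52 (-1.12 to 0.077, adjusted p = 0.682, edgeR) and between KO PBS and HET PBS it was -0.21 (-0.82 to 0.41, adjusted p = 0.897, edgeR). Among libraries with Y-linked reads the log2 ratio of the mean levels of Cd8a was -0.53 between KO antimiR-21 and HET PBS (1 library against 2), and among those without it was -1.05 (3 against 1).

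Of the cytotoxic genes, Nkg7 (chr7:43437073-43438249, plus strand), a membrane protein of cytotoxic granules, stood at 0.465, 0.635, 0.319 and 0.241 CPM in KO antimiR-21, at 0.872, 0.626, 0.661 and 0.524 CPM in KO PBS and at 0.279, 0.151 and 0.156 CPM in HET PBS. These levels rest on 8.5, 11.5, 6.5 and 4.5 counts in KO antimiR-21, 19, 12.5, 15 and 13.5 counts in KO PBS and 6.5, 5.5 and 3.5 counts in HET PBS. All 4 KO PBS libraries lay above all 3 HET PBS libraries, and the KO antimiR-21 libraries overlapped both groups. Nkg7 averaged 0.671 ± 0.146 CPM in KO PBS (SD, n = 4) and 0.195 ± 0.0726 CPM in HET PBS (SD, n = 3), a log2 difference of 1.73 with a 95% interval of 0.84 to 2.63. Its unadjusted p was 0.00123, which placed it 46th of 14380 loci, and its adjusted p was 0.377 by edgeR. Nkg7 averaged 0.415 ± 0.174 CPM in KO antimiR-21 (SD, n = 4), a log2 difference of -0.73 from KO PBS (-1.51 to 0.046, adjusted p = 0.641, edgeR) and of 1.0 from HET PBS (0.053 to 1.95, adjusted p = 0.599, edgeR). The difference between KO PBS and HET PBS ran from 1.58 to 1.94 as each library was left out in turn. Among libraries with Y-linked reads the log2 ratio of the mean levels was 1.95 (2 KO PBS and 2 HET PBS), and among those without it was 1.43 (2 KO PBS and 1 HET PBS).

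Gzma (chr13:113093825-113100981, minus strand), a granzyme of cytotoxic T and NK cells, had 0, 4.5, 12 and 3 counts in KO antimiR-21, 6, 4.5, 1.5 and 6 counts in KO PBS and 18, 2.5 and 7.5 counts in HET PBS. The library with the most reads was HET PBS replicate 1 and the groups overlapped. Pooled over a group, Gzma was at 0.258 CPM in KO antimiR-21, 0.1995 CPM in KO PBS and 0.340 CPM in HET PBS, with exact Poisson intervals of 0.157 to 0.401, 0.118 to 0.315 and 0.226 to 0.492 CPM that cover counting error only. Exact two-sided permutation tests of the mean CPM gave p = 0.8 for KO antimiR-21 against KO PBS, 0.4 for KO PBS against HET PBS and 0.514 for KO antimiR-21 against HET PBS. The smallest p these tests can give is 0.0286 with 4 libraries against 4 and 0.0571 with 4 against 3. Nkg7 and Gzma, both granule genes, had a Pearson r of -0.13 over the 11 libraries (permutation p = 0.706).

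Of the B cell genes, Cd79b (chr11:106311341-106314762, minus strand), a signalling chain of the B cell receptor, stood at 1.83, 2.29, 1.18 and 1.61 CPM in KO antimiR-21, at 1.84, 1.08, 1.10 and 1.36 CPM in KO PBS and at 1.70, 1.02 and 0.711 CPM in HET PBS. The groups overlapped, with the highest level in KO antimiR-21 replicate 2 and the lowest in HET PBS replicate 3. The log2 difference was 0.36 (SE 0.31) for KO antimiR-21 against KO PBS, 0.24 (SE 0.34) for KO PBS against HET PBS and 0.60 (SE 0.34) for KO antimiR-21 against HET PBS, with adjusted p = 0.822, 0.901 and 0.618 by edgeR. As each library was left out in turn, the value for KO PBS against HET PBS ran from 0.0085 (without HET PBS replicate 3) to 0.62 (without HET PBS replicate 1). The value for KO antimiR-21 against HET PBS ran from 0.36 to 0.99, its ends set by the same 2 libraries.

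Cd79a (chr7:24897381-24902197, plus strand), the other signalling chain, had 8, 6, 10 and 4.5 counts in KO antimiR-21, 10.5, 2.5, 9 and 9 counts in KO PBS and 11.5, 6 and 8.5 counts in HET PBS. Its mean levels of 0.375 ± 0.111 CPM in KO antimiR-21, 0.338 ± 0.152 CPM in KO PBS and 0.345 ± 0.167 CPM in HET PBS (SD, n = 4, 4 and 3) lay within the spread of each group. Exact permutation tests gave p = 0.714 for KO antimiR-21 against KO PBS, 0.857 for KO PBS against HET PBS and 0.8 for KO antimiR-21 against HET PBS. Ms4a1 (chr19:11249675-11266241, minus strand), which encodes CD20 on B cells, had 2.5, 6.5, 2 and 1 counts in KO antimiR-21, 6, 2.5, 9.5 and 7.5 counts in KO PBS and 4, 3.5 and 3 counts in HET PBS. KO PBS replicate 3 had the most reads, the groups overlapped, and the exact permutation tests of the same comparisons gave p = 0.286, 0.171 and 0.914. Unadjusted, none of the 9 exact tests of these 3 low members gave a p under 0.05. Tests against HET PBS could not do so, since their smallest possible p is 0.0571. Only the tests of KO antimiR-21 against KO PBS could.

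Cd52 (chr4:134082448-134095082, minus strand), a small surface glycoprotein of lymphocytes, monocytes and macrophages, was the most abundant member. It stood at 5.52, 6.44, 4.96 and 5.30 CPM in KO antimiR-21, at 7.32, 4.68, 3.11 and 3.92 CPM in KO PBS and at 2.96, 1.99 and 2.04 CPM in HET PBS. All 8 knockout libraries lay above all 3 HET PBS libraries, while the KO antimiR-21 and KO PBS groups overlapped. Cd52 averaged 5.55 ± 0.633 CPM in KO antimiR-21 (SD, n = 4), 4.76 ± 1.83 CPM in KO PBS (SD, n = 4) and 2.33 ± 0.546 CPM in HET PBS (SD, n = 3). The log2 difference was 1.03 between KO PBS and HET PBS (95% interval 0.41 to 1.66, unadjusted p = 0.00352, adjusted p = 0.456, edgeR), which placed Cd52 105th of 14380 loci. Between KO antimiR-21 and HET PBS it was 1.26 (0.63 to 1.88, unadjusted p = 0.000937, adjusted p = 0.364, edgeR), in 37th place. DESeq2 gave that comparison 1.26 with an adjusted p of 0.0107, and the adjusted p ran from 0.0107 to 0.992 over the alternatives. Between KO antimiR-21 and KO PBS the log2 difference was 0.22 (-0.33 to 0.77, adjusted p = 0.882, edgeR).

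As each library was left out in turn, the Cd52 difference ran from 0.75 to 1.24 between KO PBS and HET PBS and from 1.14 to 1.46 between KO antimiR-21 and HET PBS. Within libraries with Y-linked reads the log2 ratio of mean levels was 0.80 between KO PBS and HET PBS and 1.39 between KO antimiR-21 and HET PBS, and within those without such reads it was 1.02 and 0.93. Exons of Cd52 overlap those of Crybg2, on the other strand, over 849 of 1187 bases, and reads of the pair cannot be told apart by strand with this kit. The row of that gene, named Aim1l in the files, stood at 2.01 to 5.67 CPM in KO antimiR-21, 1.63 to 2.50 CPM in KO PBS and 2.09 to 4.69 CPM in HET PBS. Its log2 difference was 0.90 between KO antimiR-21 and KO PBS, -0.72 between KO PBS and HET PBS and 0.17 between KO antimiR-21 and HET PBS, set beside 0.22, 1.03 and 1.26 for Cd52.

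**Figure D2:**
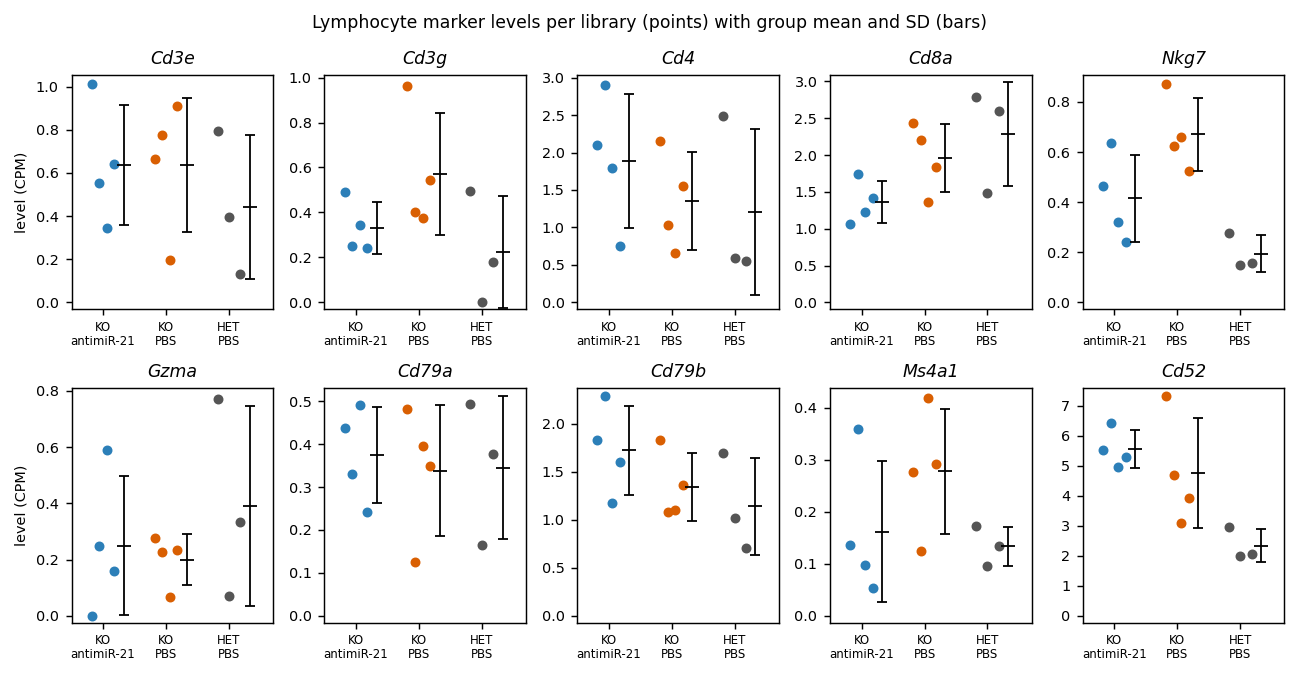
Level in CPM (vertical axes, 1 scale per gene) of the 10 lymphocyte markers in each library (points) of KO antimiR-21, KO PBS and HET PBS, with the group mean and SD as bars. Nkg7 in KO PBS and Cd52 in both knockout groups lie wholly above HET PBS, and the other groups overlap.

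Comparing KO PBS with HET PBS asks whether these markers differ with loss of both Col4a3 alleles. Nkg7 and Cd52 lay higher in KO PBS, and neither passed the adjusted threshold. Of the 7 members tested, 0 passed an adjusted p of 0.05 by edgeR, where 0% of the 14380 loci did. At an unadjusted p under 0.05 there were 2, Nkg7 and Cd52, both higher in KO PBS, against 6.94% of all loci. By DESeq2 and limma-voom, which called 0.584% and 0% of the loci they gave an adjusted p, the number of members past the adjusted threshold was also 0. The groups did not overlap for 2 members, with KO PBS higher, and for 0 with KO PBS lower, where 3.54% and 3.21% of all loci were so separated. Nkg7 had 12.5 to 19 counts in KO PBS, 4.5 to 11.5 in KO antimiR-21 and 3.5 to 6.5 in HET PBS. It thus passed the low-count filter largely through the group where it was high, and its place in these counts is not independent of the filter. The log2 difference was above 0 for 6 of 7 members, against 46.5% of loci, with a median of 0.57 beside -0.015 over all loci. With the low-count filter removed, 7 of 10 members were above 0 and the median was 0.41, Gzma (-0.88), Cd79a (-0.0074) and Cd8a (-0.20) being the 3 below 0. Among libraries with Y-linked reads (2 against 2) the log2 ratio of mean levels was 1.06 for Cd3e, 2.37 for Cd3g and 0.51 for Cd79b. Among those without (2 against 1) it was -0.14, 0.47 and -0.22.

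Comparing KO antimiR-21 with KO PBS asks whether the miR-21 inhibitor changed these markers in the knockout. None of the 7 members passed the adjusted threshold (0% of loci did), and 0 passed an unadjusted p of 0.05, against 8.21% of loci. By DESeq2, which called 1.09% of the 12704 loci it gave an adjusted p, and limma-voom, which called 0%, the number past the adjusted threshold was 0 as well. Over the 3 comparisons, DESeq2 gave 3 member values no adjusted p, and those values could not pass. The groups overlapped for all 7, where 2.34% of loci were separated with KO antimiR-21 higher and 1.95% with it lower. The log2 difference was above 0 for 3 of 7 members, Cd4, Cd79b and Cd52, against 50.9% of loci, with a median of -0.027 beside 0.0038 over all loci. The 95% intervals were wide, so that 2-fold differences in either direction are inside them for Cd3e (-1.21 to 1.16), while for Cd52 they are not (-0.33 to 0.77). Without the filter, 5 of 10 were above 0 and the median was 0.061.

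Between KO antimiR-21 and HET PBS, 0 of 7 members passed by edgeR, which called 0.00695% of loci, and by limma-voom, which called 0%. By DESeq2 1 of 7 passed, Cd52, where DESeq2 called 0.515% of loci. At an unadjusted p under 0.05 there were 3 members, Cd52 and Nkg7 higher and Cd8a lower in KO antimiR-21, against 8.05% of loci. The groups were separated for 1 member with KO antimiR-21 higher, Cd52, and for 0 with it lower, against 3.91% and 2.09% of loci. The log2 difference was above 0 for 6 of 7 members, all but Cd8a, against 49.5% of loci, with a median of 0.60 beside -0.0024 over all loci. Without the filter, 8 of 10 were above 0 with a median of 0.56. Among libraries with Y-linked reads (1 against 2) the log2 ratio of mean levels was 1.27 for Cd3e, 1.44 for Cd3g, 0.39 for Cd4 and 0.90 for Cd79b. Among those without (3 against 1) it was -0.32, -0.45, -0.14 and 0.060. The 3 comparisons share libraries, so their values are not independent.

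**Figure D3:**
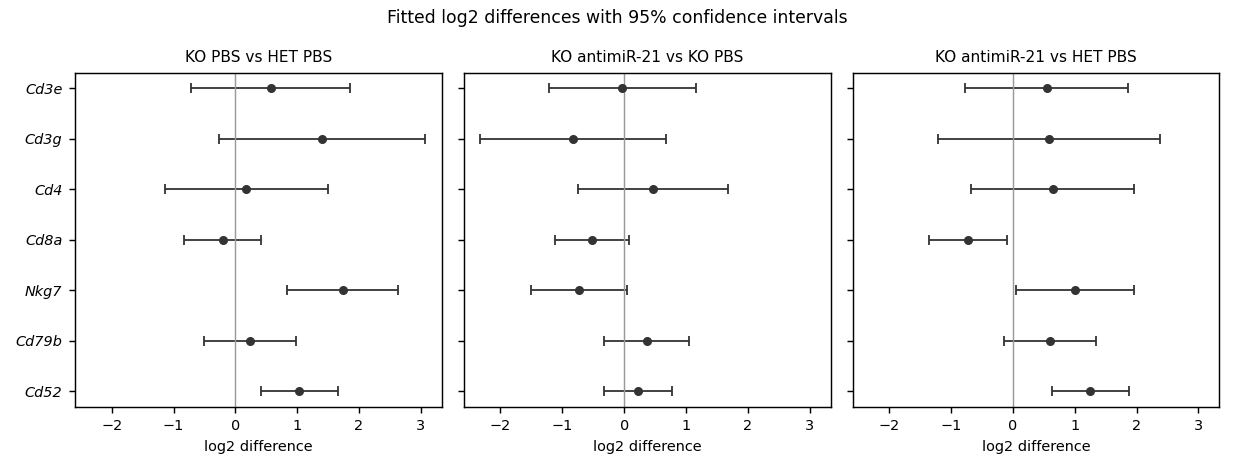
Fitted log2 difference (horizontal axes) with its 95% confidence interval for the 7 lymphocyte markers that passed the low-count filter, in the 3 comparisons named above the panels. The intervals of Nkg7 and Cd52 lie above 0 against HET PBS, that of Cd8a lies below 0 for KO antimiR-21 against HET PBS, and those of KO antimiR-21 against KO PBS all cross 0.

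Summed over the 10 members, levels were 13.1, 15.7, 11.3 and 10.6 CPM in KO antimiR-21, 17.3, 11.3, 8.35 and 11.5 CPM in KO PBS and 12.9, 5.96 and 7.22 CPM in HET PBS. Replicate 1 was the highest library of both PBS groups, and HET PBS replicate 1 lay above 5 of the 8 knockout libraries. Cd52 made up 40.9% to 49.7% of the summed counts in KO antimiR-21, 34.0% to 42.4% in KO PBS and 22.9% to 33.4% in HET PBS. The share of Cd52 in all 8 knockout libraries was thus above that in HET PBS, the other members making up less of the sum there.

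Levels of the members were related across the 11 libraries in 45 pairs, of which 37 had a positive Pearson r on log2 CPM, with a median r of 0.30. Cd4 and Cd79b, a T cell and a B cell gene, had the highest r, at 0.82 (permutation p = 0.00293, adjusted over the 45 pairs 0.132) with a Spearman rho of 0.90 (permutation p = 0.00043, adjusted 0.0193). It was the one pair past the adjusted threshold by Spearman, and 0 pairs passed by Pearson. For Cd4 and Cd79b, r was 0.70 without the 2 libraries farthest from the median of Cd4 and 0.78 on deviations from the group means. Cd52 and Cd79b followed with r = 0.75 and rho = 0.80 (permutation p = 0.00779 and 0.00471, adjusted 0.175 and 0.106).

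By Pearson r, the partners of 1 receptor complex were not among the closest pairs. Pairs of T cell genes varied. Cd3e and Cd3g had r = 0.62 and 0.60 with Cd4 (permutation p = 0.0427 and 0.0396, adjusted 0.186 each), and 0.0087 and 0.25 with Cd8a. By Spearman rho, Cd3e with Cd3g came next after Cd4 with Cd79b and Cd52 with Cd79b. Cd3e and Cd3g had r = 0.43 and rho = 0.68 (permutation p = 0.189 and 0.0252, adjusted 0.473 and 0.299). Cd79a and Cd79b had r = 0.30 and rho = 0.30 (permutation p = 0.361 and 0.371, adjusted 0.703 and 0.759), and without the 2 farthest libraries r was 0.0010. Cd4 and Cd8a had r = 0.094 and rho = 0.091 over all libraries (permutation p = 0.775 and 0.795) and r = 0.52 on deviations from the group means. Cd3g, Cd79a, Gzma and Ms4a1 rest on few reads per library, and counting error limits any r that involves them.

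**Figure D4:**
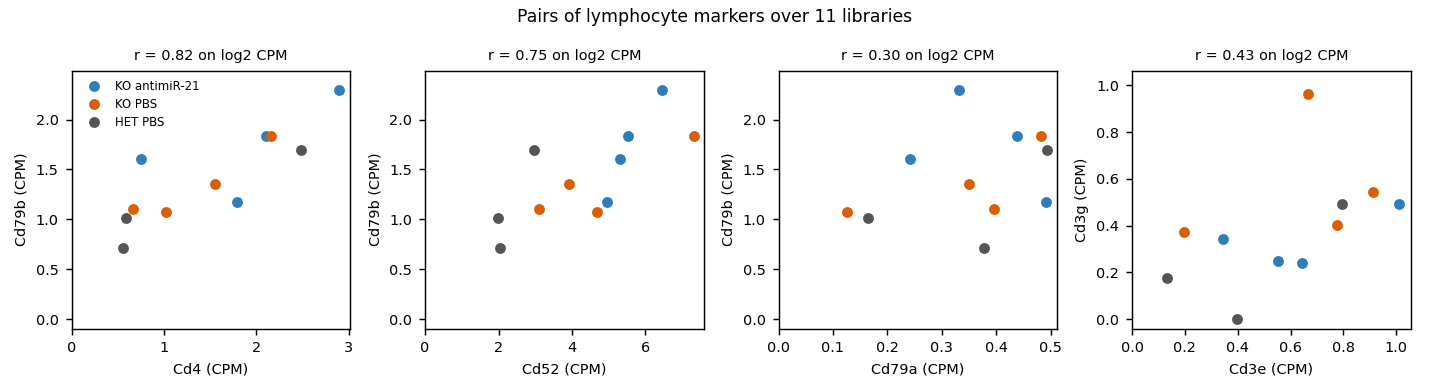
Levels in CPM of 4 pairs of lymphocyte markers in the 11 libraries (points, coloured by KO antimiR-21, KO PBS and HET PBS), with Pearson r on log2 CPM above each panel. Cd4 with Cd79b (0.82) and Cd52 with Cd79b (0.75) line up across groups, while the receptor partners Cd79a with Cd79b (0.30) and Cd3e with Cd3g (0.43) scatter more.

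For the 5 members with a mean of at least 10 counts, the loci with the most similar pattern over the 11 libraries were found by Pearson r of log2 CPM among all loci tested, as a description. Those nearest to Cd52 were Ctss (r = 0.99), a lysosomal protease of antigen-presenting cells, Vim (0.97), the filament protein vimentin, and Alox5ap (0.97), a protein of leukotriene synthesis in myeloid cells. Near to Cd4 were the joint locus Psmb9/Tap1 (0.98), genes of antigen processing, and Trerf1 (0.97). Cd79b was followed by Pip4k2a (0.95), Ccbp2 (0.95) and Csrnp1 (0.94), Cd3e by Fetub (0.91) and Ntn4 (0.88), and Cd8a by the unnamed locus XLOC_026945 (0.86), the joint locus Pfkp/Pitrm1 (0.85) and B3gnt8 (0.84). No T or B cell gene of the lists below was among the loci named here.

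Other genes of the same cell types were followed from lists of known markers, drawn up with earlier results of these data known. Of 20 other T cell genes such as Lck, Zap70 and Il7r, 14 were tested, and 5 were above 0 between KO antimiR-21 and KO PBS, 13 between KO PBS and HET PBS and 12 between KO antimiR-21 and HET PBS. Their medians of the log2 difference were -0.020, 0.47 and 0.37, and 0 passed in any of the comparisons, also unadjusted. Lck, the kinase that starts T cell receptor signalling, averaged 2.26 ± 0.546 CPM in KO antimiR-21, 2.75 ± 0.930 CPM in KO PBS and 1.81 ± 0.20 CPM in HET PBS (SD, n = 4, 4 and 3), with an unadjusted p of 0.0551 between KO PBS and HET PBS by edgeR. The 20 genes summed to 10.5 to 18.7 CPM in KO antimiR-21, 11.3 to 21.3 CPM in KO PBS and 8.44 to 16.4 CPM in HET PBS.

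Of 19 other B cell and plasma cell genes, 11 were tested, with 5, 9 and 6 above 0 in the same order of comparisons, medians of -0.081, 0.41 and 0.19, and 0 past the adjusted threshold. Unadjusted, Sdc1 was higher in KO PBS than in HET PBS (23.4 ± 5.82 against 16.3 ± 1.79 CPM, SD, n = 4 and 3, adjusted p = 0.527, edgeR), and Sdc1 and Btla were higher in KO antimiR-21 than in HET PBS. Sdc1 marks plasma cells and is also made by epithelium, and Cd38, Sdc1 and Blnk had the highest median levels of this list at 6.04, 5.48 and 3.99 CPM per kb. Pax5, the factor that sets B cell identity, had 0.818 counts per library on average.

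Of 20 other cytotoxic and NK cell genes only 5 passed the filter, with 2, 4 and 4 above 0 and medians of -0.040, 0.27 and 0.52. Ccl5, a chemokine of activated T and NK cells, averaged 3.10 ± 0.575 CPM in KO antimiR-21, 5.23 ± 4.18 CPM in KO PBS and 1.64 ± 0.299 CPM in HET PBS (SD, n = 4, 4 and 3). Its log2 difference between KO PBS and HET PBS was 1.68 (SE 0.51, unadjusted p = 0.00704, adjusted p = 0.516, edgeR). The killing genes Prf1 and Gzmb averaged 7.45 and 6.18 counts per library and the NK receptor gene Ncr1 3.73, which left them outside the fitted model.

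Most markers of other leukocytes lay on the same side as Cd52 and Nkg7 against HET PBS, and their part in the results of these members was not tested. All 15 macrophage and monocyte markers were tested, and 6, 15 and 14 were above 0 between KO antimiR-21 and KO PBS, KO PBS and HET PBS, and KO antimiR-21 and HET PBS, with medians of -0.027, 0.68 and 0.72 and 0 past the adjusted threshold. At an unadjusted p under 0.05 by edgeR, 2 of them were higher and 1 lower in KO antimiR-21 against KO PBS, 8 were higher in KO PBS against HET PBS and 8 in KO antimiR-21 against HET PBS, where 8.21%, 6.94% and 8.05% of all loci passed in either direction. Their sum was 208 to 237 CPM in KO antimiR-21, 140 to 328 CPM in KO PBS and 91.3 to 166 CPM in HET PBS, and none of them was at 0 in any library. By library, the sum in KO PBS was 328 CPM in replicate 1 and 174, 140 and 190 CPM in replicates 2 to 4. In HET PBS replicate 1 it was 166 CPM. The 19 pan-leukocyte genes had 14, 18 and 19 above 0, medians of 0.13, 0.57 and 0.67, and sums of 247 to 301 CPM in KO antimiR-21, 203 to 336 CPM in KO PBS and 170 to 239 CPM in HET PBS. Their sum in KO PBS was 336 CPM in replicate 1 and 240, 203 and 239 CPM in replicates 2 to 4. In HET PBS replicate 1 it was 239 CPM. None of these 19 passed the adjusted threshold, and at an unadjusted p under 0.05 there were 0, 9 and 13, all higher in the knockout. Of the 8 dendritic cell markers 6 were tested, with 3, 6 and 5 above 0, and their sums were 48.6 to 66.0 CPM in KO antimiR-21, 50.5 to 65.2 CPM in KO PBS and 42.4 to 57.5 CPM in HET PBS. Most of these sums was Irf8, at means of 28.2, 27.0 and 24.7 CPM in these groups, and Clec9a, at 20.5, 18.2 and 18.1 CPM. The mean sums were 57.6, 55.7 and 48.7 CPM. The lymph node stroma list summed to 1.86 to 2.96 CPM in KO antimiR-21, 1.37 to 2.57 CPM in KO PBS and 0.778 to 1.87 CPM in HET PBS. Of its genes, 3 of 6 were at 0 in some library. It held the lymphocyte genes Ltb and Fcer2a, and Ltb alone averaged 0.846, 1.03 and 0.527 CPM in these groups. The sum therefore cannot tell a node left on the kidney from lymphocytes within it.

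**Figure D5:**
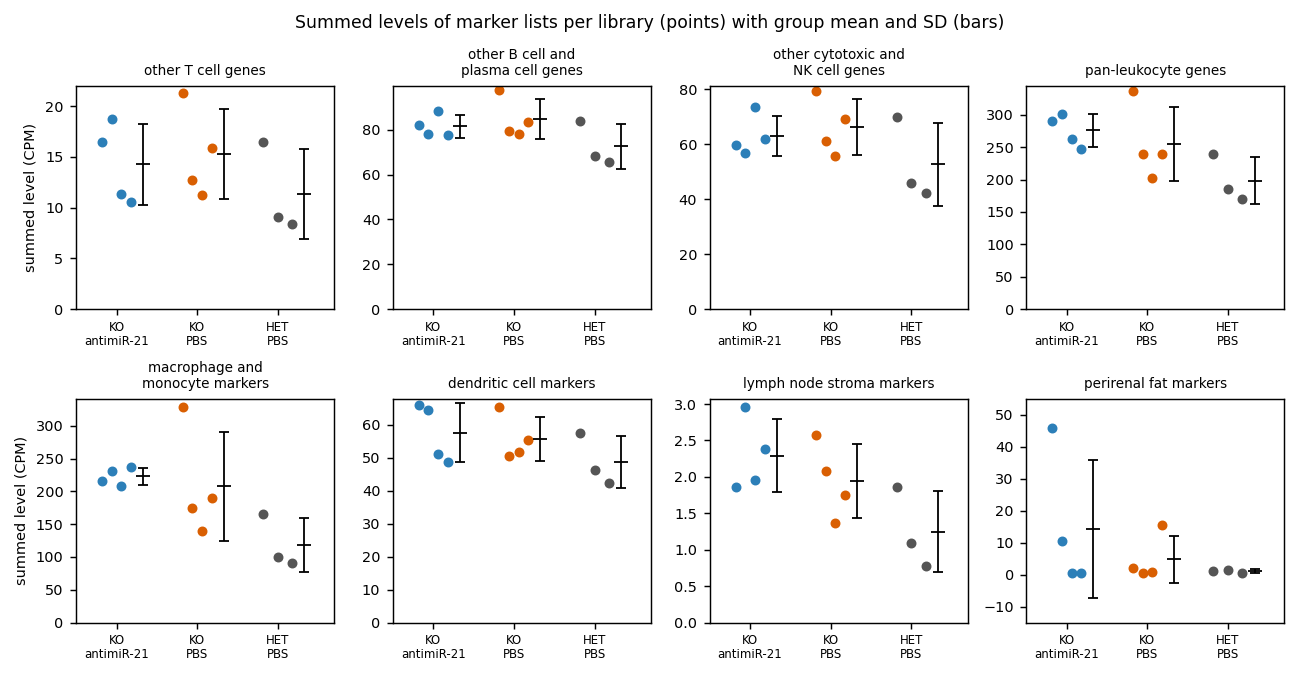
Summed level in CPM (vertical axes) of 8 marker lists in each library (points) of KO antimiR-21, KO PBS and HET PBS, with group mean and SD as bars. The KO antimiR-21 libraries lie above HET PBS for the pan-leukocyte and macrophage lists (247 to 301 against 170 to 239 CPM and 208 to 237 against 91.3 to 166 CPM), while the other T cell genes overlap. Serpinb9 alone averaged 54.5, 56.0 and 46.6 CPM of mean cytotoxic and NK sums of 63.0, 66.4 and 52.8 CPM in these groups. In KO PBS, Cd38, Blnk and Sdc1 averaged 26.4, 23.5 and 23.4 CPM of a mean B cell and plasma cell sum of 84.7 CPM.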

How the data were processed

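Per the labels' protocols, whole-kidney libraries started from 150 ng of total RNA and used the TruSeq RNA v2 kit, which does not mark strand. The authors deposited estimated counts per gene and library, not normalized, and a matrix of log2 values, per the file headers. FastQC, STAR, SAMtools, HTSeq 0.5.4p5, limma and mm10 are named in the submitters' processing notes. Annotation and counting options: not given in the sources used here. Values came in steps of 0.5, and 47.4% of those above 0 were not whole. Columns of other samples numbered 0.

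Names with identical counts in all 11 libraries (total of at least 50) were joined into 1513 joint loci, none of them a member. The deposited counts, after rounding, entered edgeR 4.0.16 (R 4.3.3): filterByExpr, TMM, a robust quasi-likelihood fit of 3 groups over all 11 libraries, 3 two-sided comparisons and Benjamini-Hochberg adjustment over 14380 loci at 0.05. CPM used unrounded counts over TMM-scaled library sizes of 17.9 to 39.7 M counts before scaling. Members under the filter were compared by exact permutation tests (scipy 1.17.1), and pairs of members by 100000 permutations on log2 CPM (prior count 2). The fit was tested on simulated data.

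Alternatives were DESeq2 1.42.0, its size factors, library totals, limma-voom 3.58.1, the authors' log2 matrix, no filter, a filter of 1 CPM in 3 libraries, rows as deposited, a term for Y-linked reads, 2 groups only, a replicate block, each library left out and, chosen after seeing the data, unrounded counts and the low members with each library left out. The members and lists were chosen with earlier results of these data known. Named were all members, the 2 genes of a list with the smallest p in a comparison, and the 3 loci most like each member of at least 10 counts. Other genes of the lists were named as examples, some after their values were seen. List genes in joint loci were left out. Some results that this rule takes are not reported here. Coordinates and exon lengths are from GENCODE vM21 (GRCm38, another name of mm10), possibly not the annotation the authors counted on.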

Additional observations from a re-analysis of the deposited data

How the results depend on the processing

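The direction and the side of the threshold held for 456 of 468 alternative values of the 7 members tested, 11 turned direction and 1 passed the threshold, which was Cd52 in KO antimiR-21 against HET PBS by DESeq2 (1.26, adjusted p = 0.0107, so 1 member called in place of 0). DESeq2 gave 3 further values no adjusted p. Cd3e in KO antimiR-21 against KO PBS turned to 0.11 by limma-voom, 0.093 with the authors' matrix and 0.023 with a replicate block, and ran from -0.34 to 0.23 as libraries were left out. Cd4 in KO PBS against HET PBS ran from -0.16 to 1.23 as libraries were left out, at -0.16 without HET PBS replicate 2 or 3 and -0.14 without KO PBS replicate 1, and Cd3g in KO antimiR-21 against HET PBS from -0.13 to 2.06. Of the low members, with libraries left out, the difference of mean CPM between KO antimiR-21 and KO PBS ran from -0.0636 to 0.133 for Gzma and -0.0341 to 0.0848 for Cd79a. Between KO PBS and HET PBS it ran from -0.0974 to 0.0670 for Cd79a, and between KO antimiR-21 and HET PBS from -0.303 to 0.0486 for Gzma, -0.0605 to 0.104 for Cd79a and -0.0376 to 0.0643 for Ms4a1.

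Counts of all loci past the threshold depended most on the tool. By edgeR they were 0 higher and 0 lower in KO antimiR-21 against KO PBS and in KO PBS against HET PBS, and 1 higher and 0 lower in KO antimiR-21 against HET PBS. DESeq2 gave 84 higher and 54 lower, 72 and 12, and 65 and 9 in these comparisons. With a replicate block the counts were 18 higher and 8 lower, 2 higher, and 3 higher and 1 lower. The authors' matrix gave 1 higher in KO PBS against HET PBS and 2 higher in KO antimiR-21 against HET PBS, the term for Y-linked reads 3 and 2, and limma-voom 0 in the last. With libraries left out, the higher loci ran from 0 to 16 in KO antimiR-21 against KO PBS (16 without KO antimiR-21 replicate 3), 0 to 2 in KO PBS against HET PBS (2 without KO PBS replicate 2) and 0 to 4 in KO antimiR-21 against HET PBS (4 without KO PBS replicate 1). The cause was not tested.

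Whether replicate numbers pair the libraries could not be settled, with only 3 or 4 same-numbered pairs per comparison. Deviations of same-numbered libraries from their group means had correlations of -0.21 to 0.36, -0.44 to 0.63 and -0.30 to 0.48 in these comparisons. The block called 0 members. Of 45 pairs of members, 37 had a positive r, 42 on deviations from group means and 33 without the 2 farthest libraries. Counts of 0 to 21 for Cd3g and 0 to 18 for Gzma in a library limit what these data can show.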

Other observations

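Lists of markers of neighbouring tissue and blood were also followed. Perirenal fat markers summed to 45.9, 10.7, 0.417 and 0.401 CPM in KO antimiR-21, 2.02, 0.626, 0.881 and 15.7 CPM in KO PBS and 1.14, 1.59 and 0.444 CPM in HET PBS, so 3 knockout libraries stood above the rest. In these 3, Cd52 stood at 5.52 CPM in KO antimiR-21 replicate 1, second of its group, at 6.44 CPM in KO antimiR-21 replicate 2, the highest of its group, and at 3.92 CPM in KO PBS replicate 4, the third of 4. Of 6 erythrocyte markers tested, 5 were above 0 between KO antimiR-21 and KO PBS, 1 between KO PBS and HET PBS and 0 between KO antimiR-21 and HET PBS, with medians of the log2 difference of 0.24, -0.91 and -0.65 and 0 past the adjusted threshold by edgeR. The sums over the 7 genes of this list were 135 to 239 CPM in KO antimiR-21, 110 to 183 CPM in KO PBS and 199.99 to 324 CPM in HET PBS. Slc4a1 averaged 1603 counts per library and the globin gene Beta-s 2568, whereas Hba-a1 averaged 20.8. The sums were thus set largely by Slc4a1 and Beta-s, and which cells these reads came from was not tested.

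Of 13 neutrophil and mast cell markers 5 were tested. Of these 5, 4 were above 0 in each of the comparisons, against 50.9%, 46.5% and 49.5% of loci, with medians of 0.20, 0.057 and 0.21. In this list S100a8, Cxcr2 and Elane averaged 2.41, 2.73 and 0.318 counts per library, while the tested genes Kit and Mpo averaged 661 and 363. Which cells supplied the reads of the tested genes was not tested, so the medians give no level of neutrophils or mast cells. Of the 2 tested genes of the lymph node stroma list, 1 was the lymphocyte gene Ltb. The other, Ccl19, a chemokine that draws T cells and dendritic cells, averaged 1.04 ± 0.332 CPM in KO antimiR-21, 0.484 ± 0.169 CPM in KO PBS and 0.498 ± 0.165 CPM in HET PBS (SD, n = 4, 4 and 3). Between KO antimiR-21 and KO PBS, Ccl19 had an unadjusted p of 0.00923 and an adjusted p of 0.412 by edgeR. Siglech, a receptor of plasmacytoid dendritic cells, averaged 0.608 ± 0.224 CPM in KO antimiR-21, 1.37 ± 0.345 CPM in KO PBS and 1.15 ± 0.262 CPM in HET PBS (SD, n = 4, 4 and 3), with an unadjusted p of 0.00198 and an adjusted p of 0.334 between KO antimiR-21 and KO PBS by edgeR.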
